A study of Mus musculus with 10 samples.

Results

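Cyclopamine, a plant alkaloid that binds and inhibits Smoothened, was compared with vehicle in mouse Wolffian ducts kept in culture, and every probe set on the array was followed. The comparison used 6 of the 10 arrays of the series: the 3 titled cyclopamine and the 3 titled vehicle. Each array carried 22206 probe sets, of which 19572 were named with 1 gene symbol, for 19505 genes. The ducts came from embryos at 16.5 days post-coitum and stayed in culture for 72 h, in 25 µM cyclopamine or, for the vehicle group, in culture medium. The 4 further arrays, from ducts in 0.5 µM SAG, an agonist of Smoothened, entered the estimate of spread, and their own values are given last. The strain, the sex and the number of ducts behind each array are not stated in the labels, nor is whether the medium of the vehicle group held the solvent of cyclopamine, so a change against vehicle may include that solvent. The labels' protocols name Wolffian ducts, and the titles name pronephros. The series describes the arrays of a group as biological replicates.

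Hedgehog ligands bind the receptor Patched, which otherwise holds Smoothened inactive. Active Smoothened lets the GLI transcription factors turn on target genes, among them those of the receptor itself and of the ligand-binding inhibitor Hhip. In the urogenital tract the ligand is made largely by epithelium and is read by the surrounding mesenchyme, which gives rise to the smooth muscle and stroma around the duct. The Wolffian duct itself becomes the epididymis and vas deferens and expresses the nephric factors Pax2, Pax8 and Emx2.

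Signal is on the log2 scale, so a difference of 1 is a doubling. Array medians lay between 7.55 and 7.70. The second principal component (16.6% of the variance) placed cyclopamine replicate 2 at -51.7 and the other cyclopamine arrays at 13.01 and 13.64. The SD of log2 differences was 0.60 and 0.59 for the pairs of cyclopamine arrays that include replicate 2, 0.45 for the other pair, and 0.39 to 0.44 between vehicle arrays. Emx2 (12.002 to 12.80 with vehicle) and the duct cadherin Cdh16 (11.74 to 13.29) had clear signal in vehicle, while the nephron markers Umod (4.71 to 5.29), Slc12a1 (4.47 to 4.80) and Six2 (5.08 to 5.76) lay near the lower quartile of probe set means, 5.19. Of 9 measured nephron markers, however, 5 had a mean over all arrays above that quartile. The mean of the 9 was 6.77, 6.57 and 6.56 with vehicle and 7.08, 6.83 and 6.97 with cyclopamine. In the limma fit to all 10 arrays 1 of them passed higher with cyclopamine (adjusted p under 0.05).

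The inhibition itself was checked at 3 direct targets. Gli1, the GLI factor that the pathway induces, had signals of 12.63, 11.67 and 11.43 on the vehicle arrays and 4.56, 5.37 and 4.995 on the cyclopamine arrays. Hhip went from 12.08, 12.67 and 11.09 to 6.21, 6.12 and 5.66, and Ptch1, the Patched receptor gene, from 14.49, 14.58 and 13.95 to 10.26, 10.16 and 10.23. None of the 3 genes had overlapping groups, which was so for 23.1% of all probe sets (11.9% lower and 11.2% higher with cyclopamine), and their limma adjusted p-values were 1.57e-06, 1.15e-05 and 9.85e-06. The other 18 of 21 measured genes of the hedgehog core list did not meet the stricter call defined next, nor did 10 of 20 contractile genes, whose other 10 fell. What follows concerns the genes outside those lists.

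A gene is said here to have risen or fallen only if its Benjamini-Hochberg adjusted p from limma was under 0.05 in the fit to all 10 arrays and stayed there, in the same direction, in each of 10 fits that left out 1 array. By this stricter call 278 of 22206 probe sets fell (1.25%) and 114 rose (0.513%). The fit to all arrays alone gave 1136 (5.12%), of which 482 were higher (2.17%) and 654 lower (2.95%). The median change over all probe sets was 0.02. Of 19505 genes, 10142 had a positive and 9329 a negative change, against which the sign counts of lists below can be read. Among named genes 265 fell and 98 rose. The vehicle and cyclopamine arrays of all 392 called probe sets did not overlap, as was so for 23.1% of all probe sets. Leaving out 13 fallen genes of the hedgehog core and contractile lists and predicted gene symbols (8 fallen, 3 risen), 244 genes fell and 95 rose. Changes were often large: 62 of these 244 fallen genes were more than 4-fold lower, and 24 of these 95 risen genes more than 4-fold higher.

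The count depends on the arrays that share the estimate of spread: with only the vehicle and cyclopamine arrays in the fit, 566 probe sets passed and 56 met the stricter call (47 lower and 9 higher), 53 of them among the 392. The fit to 9 arrays gave 485, 580 and 625 probe sets without vehicle replicate 1, 2 or 3, 698 and 679 without cyclopamine replicate 1 or 3, and 1471 without cyclopamine replicate 2.

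The largest falls outside the core and contractile lists included genes of the cell surface and of secreted factors. Ajap1, a transmembrane protein of adherens junctions, had signals of 13.85, 13.48 and 13.30 with vehicle and 6.79, 10.46 and 8.30 with cyclopamine, a fall of 32.6-fold whose size varied widely between the cyclopamine arrays (-5.03 ± 0.68 SE, limma adjusted p = 0.00294). Kcnd3, the pore subunit of an A-type potassium channel, went from 12.86, 13.20 and 12.68 to 8.17, 8.09 and 9.09 (22.1-fold lower, limma adjusted p = 9.85e-06). Wfdc1, a secreted protein with a whey acidic protein domain, went from 12.32, 12.76 and 12.03 to 7.91, 8.19 and 8.04 (-4.32 ± 0.27 SE, limma adjusted p = 1.36e-05). In the last 2 genes the cyclopamine arrays lay close together.

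Chrdl1, which binds and blocks bone morphogenetic proteins, fell 21.6-fold, the neurotrophin-3 receptor gene Ntrk3 11.1-fold and the synapsin gene Syn3 10.8-fold. Inhba, the activin beta A subunit, fell 10.6-fold and the orphan nuclear receptor gene Nr4a3 10.4-fold, the latter from 9.05 to 9.13 with vehicle to 5.25 to 6.33. Entpd1, an ectonucleotidase that breaks down extracellular ATP, fell 9.55-fold, and Thy1, a glycoprotein of fibroblast and neuron surfaces, 8.32-fold. The giant cadherin gene Fat3 and the secreted protein gene Crispld1 completed the 12 largest falls, at 7.92-fold and 7.79-fold. Syn3 overlaps Timp3, a tissue inhibitor of metalloproteinases that fell as well (-1.46), and whether the probes tell the pair apart was not tested. Among the 363 named genes called, 53 overlap another gene on the array and 4 pairs overlap with both genes called, namely Syn3 with Timp3, Col4a1 with Col4a2, E2f1 with Necab3, and Ctsa with Pltp.

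The largest rises included genes of absorptive epithelium and of myeloid cells. Cpn1, the catalytic subunit of carboxypeptidase N, rose 22.3-fold, from 5.10, 5.53 and 6.07 with vehicle to 9.36, 9.55 and 11.25 with cyclopamine (4.48 ± 0.44 SE, limma adjusted p = 0.000462). Fxyd2, the gamma subunit that modulates the sodium pump, rose 12.2-fold, from 10.65, 9.84 and 10.34 to 13.72, 14.30 and 13.64 (limma adjusted p = 6.49e-05). Pax2, a paired-box factor needed for the nephric duct, rose 11.1-fold, from 9.79, 10.68 and 9.53 to 12.49, 14.61 and 13.33 (limma adjusted p = 0.00264). The highest Pax2 signal was on cyclopamine replicate 2, and every cyclopamine array lay above every vehicle array in these 3 genes.

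Atp6v0d2, a subunit of the vacuolar proton pump, rose 14.7-fold, the sulfotransferase gene Sult1d1 11.8-fold, the myeloid lectin gene Clec4d 11.2-fold and Lgals3, galectin-3, 10.2-fold. Plau, urokinase plasminogen activator, rose 7.27-fold, the secreted leucine-rich protein gene Lgi3 6.92-fold, and Gpnmb, a glycoprotein of lysosomes and melanosomes, 6.11-fold. Hoxb8 rose 5.80-fold and Padi2, an enzyme that converts arginine in proteins to citrulline, 5.54-fold. The 12 largest falls had limma adjusted p-values up to 0.00294 and the 12 largest rises up to 0.00847.

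**Figure D1:**
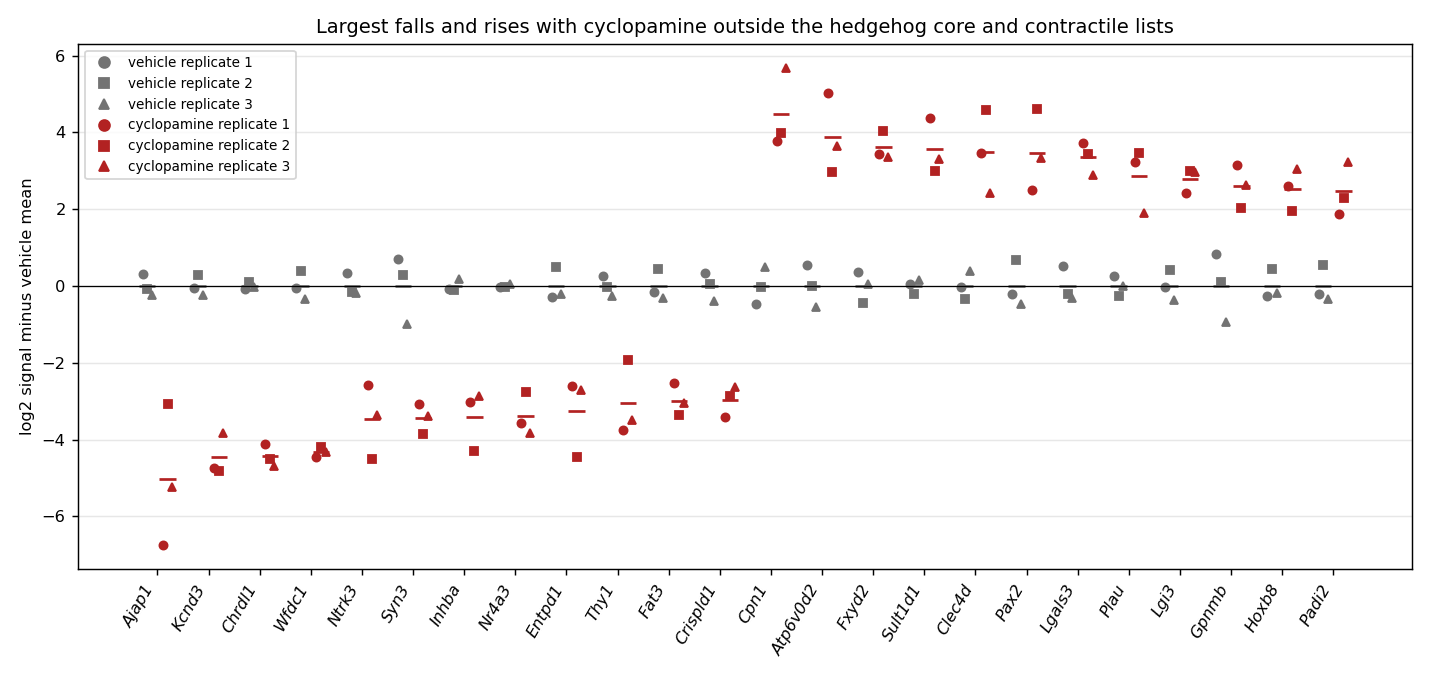
Log2 signal minus the vehicle mean (y axis) for the 12 largest falls and 12 largest rises outside the core and contractile lists, with 1 point per array, marker shape for the replicate number and a short line at each group mean. Every cyclopamine point lies outside the range of the vehicle points of its gene, and Ajap1 has the widest spread, from 6.79 to 10.46 in log2 signal.

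The genes were grouped into 37 lists of pathways and cell types and 6 further ones. Lists of BMP and activin signals, matrix and contractility held falls and few or no rises. At least 2 genes rose in the lists of nephric duct factors, transport, lysosomes and macrophage activation. Each list count below is to be read against all probe sets, of which 1.25% fell and 0.513% rose by the stricter call. In the fit to all arrays 2.95% passed lower and 2.17% higher. The 6 further lists (calcitonin-family receptors, cyclic nucleotide signalling, synaptic adhesion, neurotrophins, lysosome, and hyaluronan synthesis) were drawn up after the values of their genes were seen, so their counts only describe them.

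**Figure D2:**
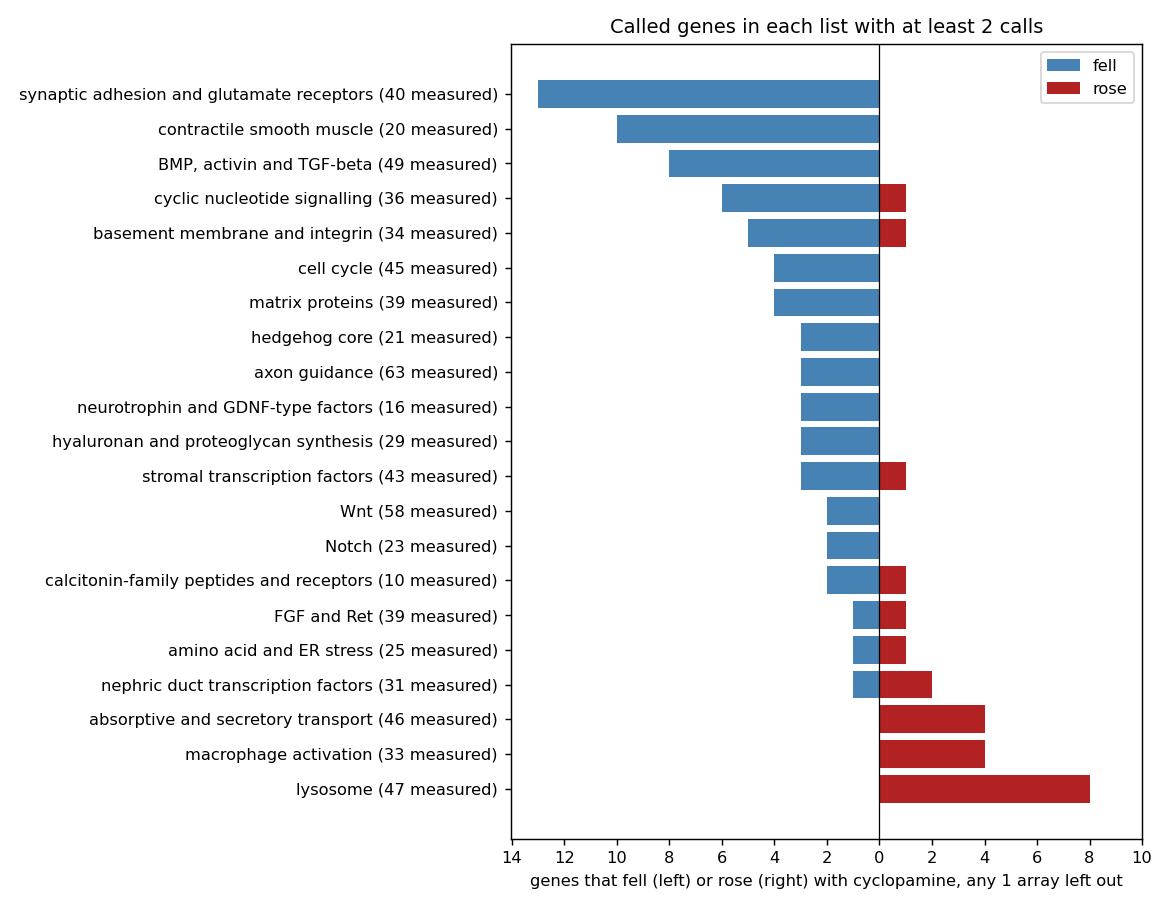
Number of genes that fell (bars to the left) or rose (bars to the right) by the stricter call in each gene list with at least 2 called genes, and beside each name the number of list genes measured. The longest bar to the left is the list of synaptic adhesion and glutamate receptors (13 of 40), drawn up after its values were seen, and the longest to the right is the lysosome list (8 of 47), drawn up in the same way.

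In the transforming growth factor beta superfamily, some transcripts of ligands, of their antagonists and of proteins that store them fell. Of 49 measured genes of the BMP, activin and TGF-beta list, 8 fell and 0 rose, 10 passed lower in the fit to all arrays, and the list median was -0.33, against 0.02 over all probe sets. Among ligands, Inhba went from 13.33, 13.28 and 13.57 to 10.37, 9.09 and 10.53. Bmp4, made by mesenchyme around the duct, went from 13.74, 14.06 and 13.29 to 11.71, 10.98 and 12.17 (4.21-fold lower, limma adjusted p = 0.00669). Tgfb3 fell 2.18-fold. These 3 ligands were lower on every cyclopamine array than on any vehicle array, as were 20 of the 49 list genes and 11.9% of all probe sets.

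Antagonists fell beside them. Chrdl1 went from 12.02, 12.18 and 12.06 to 7.97, 7.58 and 7.41. The activin-binding proteins Fst, follistatin (-1.40 ± 0.22 SE), and Fstl3 (-1.85 ± 0.29) fell as well. Ltbp4, a latent TGF-beta binding protein that anchors the latent ligand in the matrix, fell 4.73-fold (14.86, 14.81 and 14.65 with vehicle, 12.22, 13.08 and 12.29 with cyclopamine), and Ltbp3 1.70-fold. Ccn2, a matricellular target of the pathway (-1.21 ± 0.28), and Bmp2 (-0.64 ± 0.16) passed in the fit to all arrays but not by the stricter call.

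Receptors for calcitonin-family peptides changed in opposite directions. Calcrl is the shared receptor that binds adrenomedullin when paired with the accessory protein Ramp2 and calcitonin gene-related peptide when paired with Ramp1. Calcrl went from 13.27, 13.71 and 13.41 to 10.68, 11.69 and 10.70, a fall of 5.43-fold (limma adjusted p = 0.000555). Ramp2 fell 6.16-fold, from 12.79, 12.73 and 12.44 to 10.64, 8.86 and 10.59. Ramp1 rose 2.25-fold, from 8.89, 8.99 and 9.10 to 9.76, 10.27 and 10.46. The remaining 7 of 10 measured members of the family did not pass, with Ramp3 at -0.78 ± 0.24. Calcrl and Ramp2 are also known from endothelium. The mean over 18 endothelial markers was 9.05, 8.85 and 8.20 with vehicle and 8.60, 7.39 and 7.96 with cyclopamine, 16 of the 18 changes were negative with a median of -0.59, and 1 gene passed lower. The lowest endothelial mean and the lowest Ramp2 signal were both on cyclopamine replicate 2, whereas Calcrl had its highest cyclopamine signal there (11.69). The part of endothelium in the falls of Calcrl and Ramp2 was not tested.

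Such receptors signal through cyclic nucleotides. Of 36 genes of cyclic nucleotide signalling 6 fell and 1 rose. Prkar1b, a regulatory subunit of the cyclic AMP-dependent kinase (-1.81 ± 0.20 SE), and the adenylyl cyclase genes Adcy7 (-2.52 ± 0.38) and Adcy5 (-1.73 ± 0.27) fell. On the cyclic GMP side Npr2, the receptor for C-type natriuretic peptide (-0.96 ± 0.14), the kinase gene Prkg1 (-1.47 ± 0.23) and the phosphodiesterase gene Pde5a (-1.14 ± 0.19) fell. Pde1a, a calcium-dependent phosphodiesterase, rose (1.19 ± 0.20), and Pde8b (1.93 ± 0.40) passed only in the fit to all arrays. Prkg1 and Pde5a are known from smooth muscle, whose contractile genes fell on the same arrays, and the part of that tissue in these counts was not tested.

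Among 43 stromal transcription factors, 3 fell and 1 rose. Tcf21, a basic helix-loop-helix factor of visceral mesenchyme, went from 14.73, 14.58 and 14.27 to 11.96, 12.42 and 11.99 (5.29-fold lower, limma adjusted p = 0.000210). Twist2, a related factor of dermal and other mesenchyme, went from 12.01, 12.27 and 12.001 to 9.10, 10.20 and 9.71 (5.37-fold lower). Foxl2, a forkhead factor, fell from signals of 5.60 to 6.52 to 3.88 to 4.74, the latter below the lower quartile, where differences may be understated. Ebf2, a factor of mesenchymal progenitors, rose 3.46-fold (6.86, 6.14 and 6.30 with vehicle, 8.68, 8.28 and 7.72 with cyclopamine). The list median was -0.28, and 33 of 43 members had a negative change. Foxf1 (-1.12 ± 0.22) and Lef1 (-1.08 ± 0.22) passed only in the fit to all arrays.

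Some genes met the stricter call in the lists of local signals between duct and stroma, beside 1.25% of all probe sets fallen and 0.513% risen. In the fit to all arrays 4 genes of the Notch list and 6 of the Wnt list passed lower, as did 2.95% of all probe sets. In the Notch list 2 of 23 genes fell, both targets that repress transcription: Heyl (-1.93 ± 0.20 SE, limma adjusted p = 0.000672) and Hey2 (-1.78 ± 0.27). Jag1, a Notch ligand (-0.95 ± 0.19), passed only in the fit to all arrays. In the Wnt list 2 of 58 genes fell, 1 of them with each array centred on its median or normalized by quantiles once more: the secreted Dkk3 (-1.01 ± 0.15) and the ligand gene Wnt5b (-1.39 ± 0.25). The Wnt median was 0.11. Among 39 FGF and Ret genes, Artn, a ligand of the GDNF family, went from 7.12, 7.00 and 7.07 to 4.64, 4.32 and 4.62 (5.79-fold lower, limma adjusted p = 0.000121), and Dusp6, a phosphatase that restrains ERK signalling downstream of FGF receptors, rose 2.72-fold. Fgfr4 (1.36 ± 0.28) passed only in the fit to all arrays.

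Genes of the matrix fell, among them chains of the basement membrane. Of 42 collagen genes 5 fell and 0 rose: Col4a1 went from 10.49, 10.49 and 10.42 to 8.97, 8.22 and 8.28 (3.94-fold lower, limma adjusted p = 0.000316), and its partner Col4a2 from 11.80, 12.16 and 12.10 to 10.68, 10.27 and 9.73 (3.46-fold lower). Both encode the main collagen of basement membranes, and they lie head to head and overlap. A further chain of that network, Col4a6 (-1.12 ± 0.19), and the fibrillar collagen genes Col5a2 (-0.95 ± 0.17) and Col1a1 (-0.76 ± 0.14) fell too. With array weights 2 of the 42 collagen genes met the stricter call, and the family median was -0.26.

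Among 34 basement membrane and integrin genes, 5 fell and 1 rose. The laminin chain gene Lamc3 fell 7.30-fold, from 10.44, 10.35 and 9.98 to 7.93, 6.94 and 7.30, and Lama2, the laminin chain of muscle and mesenchyme, 2.52-fold. Itga4, an integrin subunit that binds fibronectin and VCAM1, fell 6.01-fold, Itgb3, which pairs with alpha V, 2.77-fold, and the basement membrane protein gene Frem1 2.85-fold. Itga3, the subunit of an epithelial laminin receptor, rose 1.73-fold (11.20, 11.53 and 11.32 with vehicle, 12.15, 11.99 and 12.29 with cyclopamine). Frem2 (1.04 ± 0.23) and Nid1 (-0.61 ± 0.14) passed only in the fit to all arrays.

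Of 39 other matrix proteins 4 fell, though only 1 did with the arrays centred or quantile normalized, and the list median was -0.52. They were the cross-linking enzyme gene Loxl3 (-1.02 ± 0.18 SE), Postn, periostin (-2.04 ± 0.36), the collagen-binding proteoglycan gene Lum, lumican (-0.75 ± 0.14), and Sparcl1 (-0.99 ± 0.19). Vcan, versican (-1.51 ± 0.28), passed only in the fit to all arrays. Cell-surface heparan sulfate carriers split: Gpc3, a glypican, fell 2.33-fold and the syndecan gene Sdc3 2.69-fold, while Sdc4 rose 2.04-fold, among 10 measured members. Of 29 genes of hyaluronan and proteoglycan synthesis 3 fell, led by Has2, the main hyaluronan synthase of embryonic mesenchyme, from 11.38, 11.44 and 11.54 to 8.91, 9.05 and 9.70 (4.70-fold lower, limma adjusted p = 0.000522). Chsy3 and Xylt1, which act in chondroitin chain synthesis and in the first step of chain attachment, fell 3.62-fold and 2.23-fold.

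**Figure D3:**
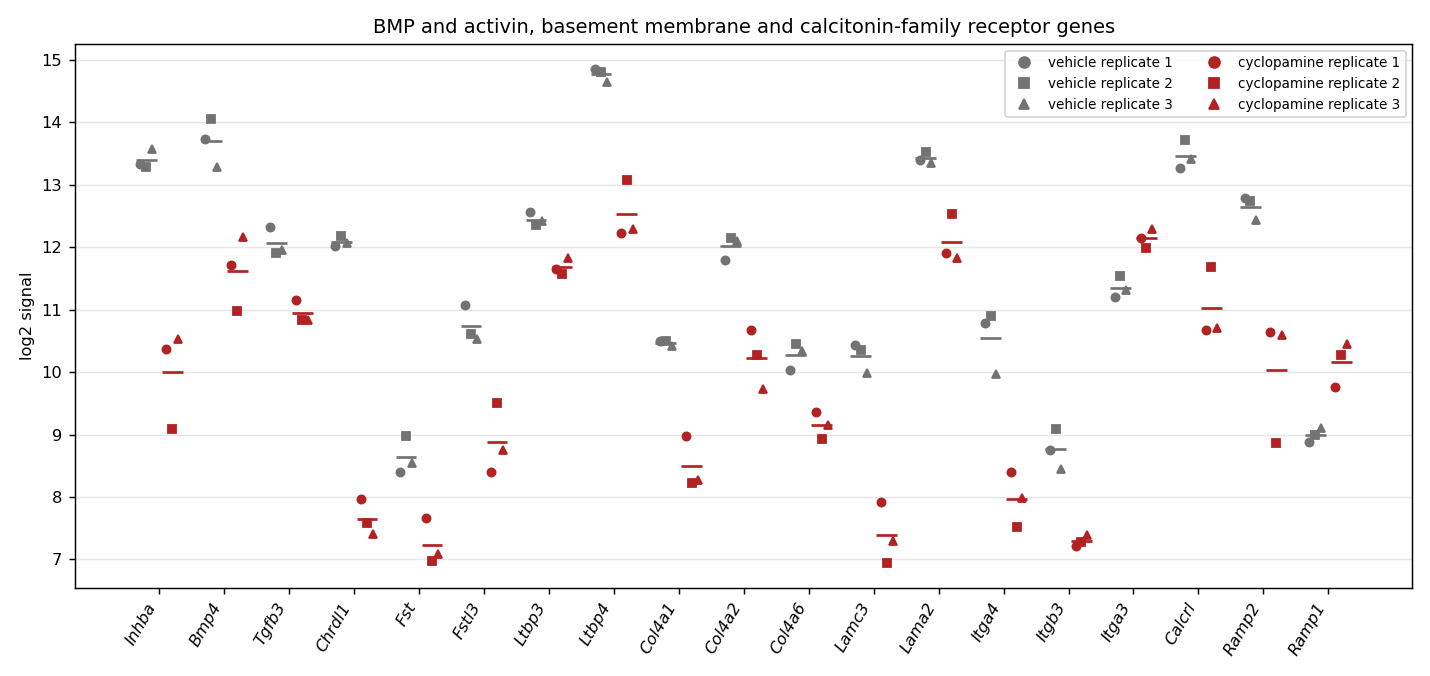
Log2 signal (y axis) of genes of BMP and activin signalling, of the basement membrane and its receptors, and of calcitonin-family receptors, with 1 point per array, marker shape for the replicate number and a short line at each group mean. Itga3 and Ramp1 are the 2 of these 19 genes with cyclopamine points (from 11.99 and 9.76) above vehicle points, and Calcrl and Ramp2 lie lower with cyclopamine beside them.

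Some genes best known from synapses fell as well. Of 40 genes of synaptic adhesion and glutamate receptors 13 fell and 0 rose. Nlgn3, a neuroligin, went from 10.39, 10.37 and 10.24 to 7.67, 7.42 and 7.09 (7.66-fold lower, limma adjusted p = 7.83e-06), with little spread in either group. Cntnap1, an axonal contact protein, fell 6.61-fold, and the glutamate receptor genes Gria4 and Grik3 3.01-fold and 3.36-fold. Adgrb2, an adhesion receptor (-1.05 ± 0.15 SE), fell as well, and Grik5 (-0.69 ± 0.16) passed only in the fit to all arrays. Of 16 neurotrophin and GDNF-type genes 3 fell: Artn, Ntrk3 and Alkal2, a ligand of the ALK receptor (-2.79 ± 0.39). Ngfr, a neurotrophin receptor also found in mesenchyme, was at -1.90 ± 0.40 and passed only in the fit to all arrays.

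Markers of neurons and glia were measured beside them. Their mean over 15 genes was 9.92, 9.81 and 8.15 on the vehicle arrays and 9.63, 6.86 and 6.86 on the cyclopamine arrays, none of the 15 passed the test, and their median change was -1.55. The mean of the synaptic list was 8.42, 8.43 and 8.19 with vehicle and 7.69, 7.53 and 7.52 with cyclopamine. The synaptic list was drawn up after its values were seen, so its separation of the groups is no result, and the part of neurons in its falls was not tested.

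Axon guidance genes, whose ligands and receptors also act between epithelium and mesenchyme, fell in 3 of 63 cases, beside 1.25% of all probe sets. The 3 were the plexin gene Plxna2 (-1.44 ± 0.21 SE), the ephrin receptor gene Epha3 (-1.23 ± 0.20) and the Slit receptor gene Robo2 (-1.65 ± 0.29). Robo1 (-1.12 ± 0.21) passed only in the fit to all arrays. Ion channels changed at a few members. Besides Kcnd3, 2 of 90 potassium channel genes fell, the accessory subunit gene Kcne4 (-1.75 ± 0.28) and Kcnh2, the pore of the rapid delayed rectifier (-1.40 ± 0.25), and 0 rose. Of 22 TRP channel genes, Trpv6, a calcium entry channel of absorptive epithelia, rose 2.81-fold (5.66, 5.91 and 5.83 with vehicle, 7.39, 7.19 and 7.30 with cyclopamine), Trpv4, which responds to cell swelling, rose 2.75-fold, and Trpc4 fell 2.84-fold. Trpc1 (-1.06 ± 0.22) passed only in the fit to all arrays.

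On the epithelial side, some transcription factors and transport genes of the duct rose. Among 31 nephric duct transcription factors Pax2 and Pax8 rose and Gata2 fell. In the fit to all arrays 8 passed higher, beside 2.17% of all probe sets. Pax8 went from 11.91, 12.15 and 11.64 to 12.98, 13.71 and 13.02 (2.52-fold higher, limma adjusted p = 0.00974). Gata2, a zinc finger factor, went from 14.96, 14.73 and 14.64 to 12.49, 13.58 and 12.32 (3.94-fold lower). Tfap2a (1.58 ± 0.30) passed only in the fit to all arrays. The list median was 0.68, with 25 of 31 changes positive.

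Of 35 epithelial junction and keratin genes 1 rose by the stricter call, the kidney and duct cadherin gene Cdh16, from 12.46, 13.29 and 11.74 to 14.47, 14.71 and 15.03 (4.73-fold). In the fit to all arrays 9 passed higher, beside 2.17% of all probe sets. Among the 9 was the claudin gene Cldn4 (2.37 ± 0.44 SE), and 32 of the 35 changes were positive with a median of 1.02. The list mean was 9.92, 10.43 and 9.65 with vehicle and 10.996, 10.41 and 11.30 with cyclopamine, so cyclopamine replicate 2 lay beside vehicle replicate 2. In whole ducts, more cells of a type and more RNA per cell cannot be told apart, nor can fewer cells and less RNA per cell.

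Transport genes of absorptive tubules rose in 4 of 46 cases and fell in 0. Besides Fxyd2 and Atp6v0d2 these were Aqp9, a channel for water and glycerol known from the epididymis, which rose 3.14-fold (7.17, 7.82 and 6.77 with vehicle, 9.21, 8.69 and 8.81 with cyclopamine), and Cubn, the endocytic receptor cubilin. Atp6v0d2 is also counted below among the lysosomal and the macrophage activation genes, so these counts are not separate. Cubn lay at 4.78, 4.71 and 4.68 with vehicle, below the lower quartile, and at 5.81, 5.77 and 5.47 with cyclopamine, so its 1.95-fold rise may be understated. Slc14a2, a urea transporter, was 32.0-fold higher and passed only in the fit to all arrays, its signal ranging from 8.44 to 13.75 between the cyclopamine arrays. Aldh1a3, which makes retinoic acid from retinal, rose 3.38-fold, among 18 retinoic acid genes of which 0 fell.

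Promoter windows were searched for 3 motifs on both strands, in the RefSeq table of assembly GRCm38.p6, which gives 250 bases before and 50 after each start site. Of 15691 genes on the array with a window, 0.695% held the HNF1 core TAATNATTA, the half-site pair bound by a homeodomain factor of kidney and gut epithelium. It was held by 4 of 74 risen genes with a window (5.41%), 0 of 203 fallen genes and 3 of 56 genes of the transport and duct factor lists (5.36%). Aqp9 and Cubn count both among the risen genes and among those of the lists, so these shares are not separate observations. The 4 risen genes are shown because they share the motif and the direction of change: Aqp9, Cubn, Cltrn, which encodes collectrin, a partner of amino acid carriers that rose 5.32-fold, and Agmo, an ether lipid oxygenase that rose 3.18-fold. Cltrn, Agmo and Nmur2 below were named for their motifs after their values were seen. Each stretch runs 5′ to 3′ in the direction of its gene, with the motif in capitals, and lies at chr9:71163377-71163435 (minus strand) for Aqp9, chr2:13492031-13492089 (minus) for Cubn, chrX:164090110-164090168 (plus) for Cltrn and chr12:37241465-37241523 (plus) for Agmo.
Aqp9: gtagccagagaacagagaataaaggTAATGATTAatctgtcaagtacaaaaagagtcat
Cubn: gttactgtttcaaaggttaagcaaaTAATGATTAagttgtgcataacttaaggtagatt
Cltrn: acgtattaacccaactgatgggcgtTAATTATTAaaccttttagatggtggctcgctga
Agmo: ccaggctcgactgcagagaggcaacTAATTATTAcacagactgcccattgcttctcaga

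The GLI motif GACCACCCA, the letters bound by the GLI factors, was in the window of 0.210% of all genes, 1 of 203 fallen genes (0.493%) and 0 of 74 risen genes. The fallen gene was Nmur2, a receptor for neuromedin U, with signals of 7.66, 7.71 and 8.26 on the vehicle arrays and 5.01, 5.19 and 6.37 on the cyclopamine arrays (5.11-fold lower, limma adjusted p = 0.00631). Its stretch, at chr11:56041026-56041084 (minus strand, GRCm38.p6), carries the motif on the strand opposite to the gene. The windows of Ptch1, Hhip, Pax2 and Hoxb8 did not hold these letters, and no window of Gli1 was used here. The E2F motifs TTTCGCGC or TTTGGCGC were held by 1.29% of all genes, 0 of 203 fallen and 0 of 74 risen genes, and 7 of 38 cell cycle genes with a window (18.4%). These are matches of letters within 300 bases and do not show binding.
Nmur2: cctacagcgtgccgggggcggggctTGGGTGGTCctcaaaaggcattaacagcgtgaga

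The Hox clusters, which set position along the tract, differed in the sign of their median change, a difference that was not tested. In the HoxB cluster 3 of 9 measured genes rose and 0 fell. Hoxb8 went from 9.30, 9.99 and 9.38 to 12.15, 11.52 and 12.61, Hoxb6 from 8.76, 8.92 and 8.29 to 9.95, 9.61 and 10.57, and Hoxb2 from 10.74, 10.72 and 10.20 to 11.68, 11.47 and 11.95. On all 3 genes the lowest cyclopamine array was replicate 2. Hoxb3 (1.03 ± 0.27 SE) and Hoxb7 (0.81 ± 0.25) did not pass. The median change of the 9 genes was 1.03. It was -0.91 over 8 HoxA, -0.98 over 9 HoxC and -1.06 over 7 HoxD genes, of which 0 met the stricter call and 1, 2 and 1 passed lower in the fit to all arrays.

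**Figure D4:**
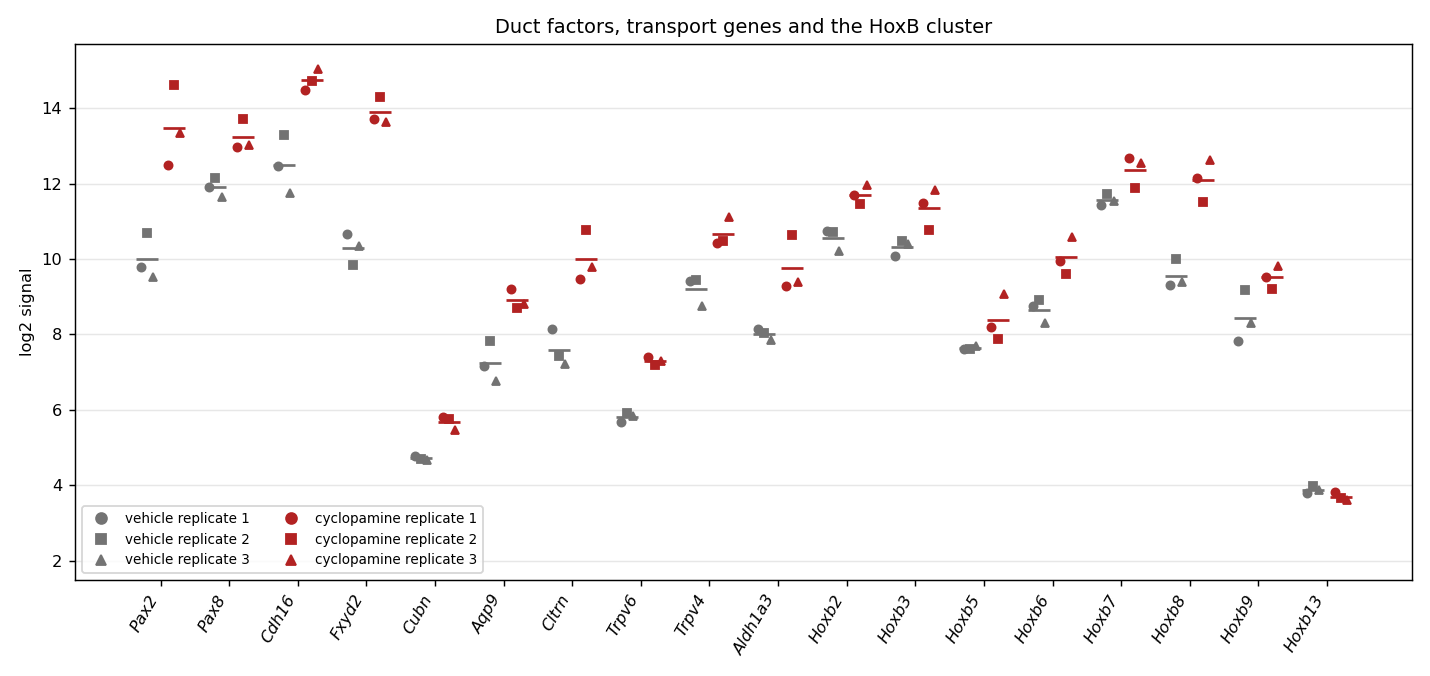
Log2 signal (y axis) of duct transcription factors, transport genes and HoxB genes (not all of the 9 measured), with 1 point per array, marker shape for the replicate number and a short line at each group mean. All genes but Hoxb13, which lies between 3.62 and 3.98 in both groups, have a higher mean with cyclopamine, and Cubn lies near the lower end of the scale in both groups.

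Some lysosomal genes rose. Of 47 measured genes 14 passed higher in the fit to all arrays, beside 2.17% of all probe sets, 42 changes were positive and the median was 0.44. By the stricter call 0 fell and 8 rose, beside 0.513% of all probe sets risen. They were the membrane protein gene Laptm4b (11.67, 11.57 and 11.71 with vehicle, 12.76, 12.92 and 12.56 with cyclopamine), the galactosidase gene Gla (2.37-fold), the proton pump subunit genes Atp6v0d2 and Atp6v1a (2.08-fold), the chloride transporter gene Clcn5 (1.85-fold), the protease genes Ctsl (2.03-fold) and Ctsa, and Creg1. Neu1, a sialidase (1.12 ± 0.21 SE), passed only in the fit to all arrays. The list mean was 11.85, 11.81 and 11.86 on the vehicle arrays and 12.51, 12.29 and 12.28 on the cyclopamine arrays.

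Genes of activated macrophages rose in 4 of 33 cases: Lgals3, Gpnmb, Atp6v0d2 and Ctsl, the last 2 also counted as lysosomal and Atp6v0d2 as a transport gene too. In the fit to all arrays 10 passed higher, beside 2.17% of all probe sets. Among the 10 was the chemokine gene Ccl9 (4.30 ± 0.88 SE), and the list median was 1.25. The list mean was 8.27, 7.90 and 8.89 with vehicle and 10.34, 10.39 and 9.21 with cyclopamine, with replicate 3 nearest to vehicle. Among 23 markers of macrophage identity 1 rose, the lipopolysaccharide co-receptor gene Cd14 (8.53, 8.78 and 9.43 with vehicle, 10.96, 12.27 and 10.50 with cyclopamine), and 4 passed higher in the fit to all arrays, including Fcer1g (1.41 ± 0.28). Their mean was 10.15, 9.94 and 10.51 with vehicle and 11.52, 10.29 and 10.42 with cyclopamine, so the groups overlapped. The defining markers Adgre1 (0.38 ± 0.26) and Csf1r (-0.03 ± 0.26) did not pass. The part of the number of macrophages in the activation and lysosomal counts was not tested.

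**Figure D5:**
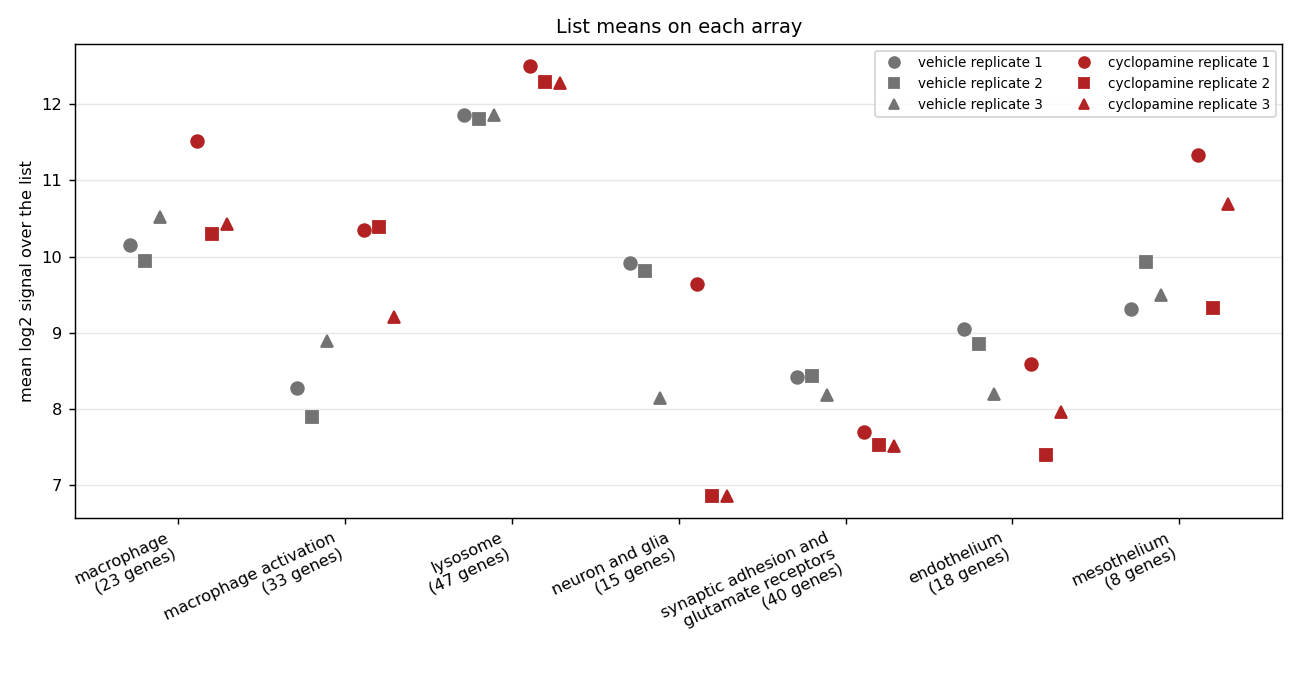
Mean log2 signal over each list (y axis) on each array, with marker shape for the replicate number. The groups overlap for the lists of macrophage identity, neurons and glia, endothelium and mesothelium and do not for the activation, lysosome and synaptic lists. The lysosome and synaptic lists were drawn up after their values were seen. The other lists were chosen with earlier results of these data known, so no separation shown here is a test.

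Cell cycle genes fell in 4 of 45 cases and rose in 0. They were the cyclin gene Ccna2, from 14.41, 13.76 and 14.14 to 12.83, 11.91 and 12.40 (3.31-fold lower, limma adjusted p = 0.00690), the transcription factor genes E2f1 (-0.99 ± 0.15 SE) and Mybl2 (-1.17 ± 0.20), and Cdkn2c, an inhibitor of cyclin-dependent kinases (-1.24 ± 0.18). The last of these acts against the cycle, unlike the other 3. In the fit to all arrays 10 genes passed lower, as did 2.95% of all probe sets, and 42 of 45 changes were negative with a median of -0.45. Bcl2, an inhibitor of apoptosis, was the 1 of 21 p53 and apoptosis genes that fell (-1.28 ± 0.20), and 0 rose. In the amino acid and ER stress list Nqo1, an enzyme of the oxidative stress response, rose (1.13 ± 0.19) and the lipoprotein receptor gene Vldlr fell (-1.28 ± 0.19), among 25 genes. Cspg4, a proteoglycan of pericytes and smooth muscle, was the 1 of 9 pericyte markers that fell (-2.29 ± 0.27), and the list median was -1.24.

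No gene met the stricter call in the lists of the IGF system (17 genes), steroid receptors and enzymes (18), cholesterol synthesis and LXR (23), hypoxia and glycolysis (20), primary cilium (32), interferon and complement (22), endothelium (18) or other leukocytes (18). In the fit to all arrays 1 gene of the IGF system and 1 of the endothelium list passed lower and 1 of the cilium list passed higher, and 0 of the others. With 1.25% of all probe sets fallen and 0.513% risen, counts of 0 in lists of this size say little about their members. Of the endothelium genes 16 of 18 had a negative change, of the hypoxia and glycolysis genes 15 of 20 (median -0.12), while 20 of 23 cholesterol and LXR genes had a positive change (median 0.28). At an unadjusted p under 0.05, 4189 of 22206 probe sets passed. Of 87 symbol families 48 held no gene that met the stricter call, among them 60 ribosomal proteins, 46 complex I subunits, 55 serpins, 49 keratins and 94 cytochromes P450. The 48 include the histone family, whose symbol pattern matched 0 genes, so its count says nothing about histone genes.

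The response of the named genes to SAG is given beside the response to cyclopamine as separate values, because both comparisons use the same vehicle arrays. With SAG, 0.73% of all probe sets passed in the fit to all arrays. Of the 12 largest falls, Crispld1 was higher with SAG (1.97, limma adjusted p = 0.00404) and Entpd1 lower (-2.18, limma adjusted p = 0.0412), and 10 did not pass. Of the 12 largest rises 0 passed with SAG (limma), and 4 had an unadjusted p under 0.05. Of the named genes outside the hedgehog core list, 13 passed with SAG, all of which are given here. In the SAG comparison Timp3 was at 1.46 (limma adjusted p = 0.0120) and Foxf1 at 1.17 (0.0351). Has2 was at 1.27 (limma adjusted p = 0.0228), Gpc3 at 1.22 (0.00841), Dkk3 at 1.19 (0.00476), Artn at 1.02 (0.0436) and Tgfb3 at 1.01 (0.0120). Hoxb6 was at -1.25 (0.0360). Nmur2 (-2.48, 0.0120), Trpc4 (-1.47, 0.0283) and Gria1, a glutamate receptor gene that fell with cyclopamine (-1.44), at -1.21 (0.0228), were lower with both compounds.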

How the data were processed

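The deposited table holds log2 values for 22206 probe sets on each of 10 arrays, made by the authors from Affymetrix arrays labelled by the GeneChip WT Plus protocol, per the labels' protocols. Not given in the sources used here are the summarization, the normalization and the genome build. The log base 2 was inferred from the range of values. The platform's annotation gave the gene symbols.

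A mean per group was fitted to all 10 arrays with limma 3.58.1 in R 4.3.3 (lmFit and eBayes, 7 residual and 3.70 prior degrees of freedom), with two-sided p-values adjusted by Benjamini and Hochberg's method across the 22206 probe sets and no filter. Fits without each array gave the stricter call. Errors are moderated standard errors. For each of 55 genes with several probe sets the brightest was used. Genes were named by a rule: the 12 largest falls and rises by the stricter call outside the core and contractile lists, Gli1, Ptch1 and Hhip, and up to 6 called and 2 other members of each list or family by smallest p. Timp3, Pltp and Necab3 (overlaps), Hoxb13, Emx2, Umod, Slc12a1, Six2, Adgre1, Csf1r, Gria1, Ctsa, Creg1, Bmp4, Ltbp3 and Pde5a and the genes named for motifs fall outside it and were chosen after their values were seen. The members, lists and rule were chosen with earlier results of these data known. Of 995 genes on the 37 lists 925 were measured. The script was tested on simulated data before use. Cyclopamine and vehicle arrays with the same number deviated with correlations of -0.015, -0.193 and -0.185, so the numbers were not taken to pair samples. Alternatives covered normalization, filtering, the samples fitted, the variance prior, array weights, a replicate block and the threshold. The number of arrays limits the precision.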

Additional observations from a re-analysis of the deposited data

Results flagged for a closer look

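Foxf1, a forkhead factor of visceral mesenchyme, had signals of 7.29, 7.29 and 7.29 on SAG replicates 1, 2 and 4 and 7.11 on replicate 3. The gap below the other arrays was 0.977 of the range of the 4 arrays, above Dixon's 95% critical value for a group of this size, although the range itself was narrow. It was 1 of 13 genes for which the SAG arrays were tested in this way, and chance puts about 1 in 20 groups past the limit.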

How the results depend on the processing

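The count of 1136 probe sets was 566 with only the vehicle and cyclopamine arrays in the fit, 568 with unmoderated variances and 354 at a threshold of 0.01, and lay between 485 and 1471 with 1 array left out. It was 1113 with quantile normalization once more, 1076 with centred arrays, 1253 without the dimmest 25% of probe sets, 1223 with an intensity-dependent prior and 1258 with array weights. The stricter call (392: 114 risen, 278 fallen) gave 56 (9 risen, 47 fallen) with only the 2 groups, 253 (72 and 181) with array weights and 60 (8 and 52) at a threshold of 0.01. Quantile normalization and centring kept 368 and 355 of the 392, and 0 changed sign under any of the 7 settings compared. With the replicate number as a block, 653 probe sets passed and 51 met the stricter call (9 risen, 42 fallen). Why the counts moved was not tested. Of 119 called genes named, 110 kept an adjusted p under 0.05 in the single fit with only the 2 groups and 118 with the replicate block. The block took Sparcl1 above 0.05. The stricter call was met by 22 and 24 of the 119 under these settings. The single 2-group fit took the limma adjusted p of Aldh1a3, Wnt5b, Itga3, Sparcl1, Hoxb6, Col5a2, Kcnh2, Trpc4 and Agmo above 0.05 (up to 0.0617). Of 46 counts of genes risen or fallen in a list, 43 were lower with only the 2 groups, 42 with the replicate block and 24 with array weights. Signal near the lower quartile, 5.19, limits the size of changes in dim genes.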

Other observations

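Single cyclopamine arrays stood apart at small sets of genes, picked after their values were seen and described without a test, with predicted gene symbols left out. On 13 genes cyclopamine replicates 1 and 3 lay more than 1.5 log2 units above the vehicle range and replicate 2 no more than 0.2 above it, among them Wfdc2, a protease inhibitor of epididymal epithelium (9.51 to 10.48 with vehicle, 12.02 and 12.32 on replicates 1 and 3, 10.13 on replicate 2), the Wnt receptor gene Fzd10 (8.55 to 9.29, 11.79 and 11.67, 8.48) and the mesothelial marker Upk3b (12.73 to 13.19, 14.93 and 14.82, 12.16). On 6 genes replicates 1 and 3 lay as far below and replicate 2 no more than 0.2 below. These were Hoxa10 (14.00 to 14.18, 10.72 and 12.04, 13.91), Hoxa11, its antisense gene Hoxa11os, the Wnt receptor gene Ror2 (10.67 to 10.74, 8.50 and 8.46, 10.57), Rasl11b and the tachykinin gene Tac2.

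On 9 genes replicates 2 and 3 lay more than 1.5 units below the vehicle range and replicate 1 no more than 0.2 below it, among them the neurofilament genes Nefl (8.68 to 11.47 with vehicle, 6.57 and 6.38 on replicates 2 and 3, 10.67 on replicate 1) and Nefm, the intermediate filament gene Prph (9.94 to 11.55, 8.28 and 8.24, 12.19) and Dbh, which makes noradrenaline. On 7 genes replicates 1 and 2 lay more than 1.5 units above the range and replicate 3 no more than 0.2 above it, among them the chemokine genes Ccl2 (6.26 to 11.59 with vehicle, 13.36 and 14.21 on replicates 1 and 2, 9.84 on replicate 3), Ccl12, Ccl4 and Pf4 and the acute-phase gene Hp.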
